A study of Mus musculus with 2 samples.

Results

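The enzymes described here assemble and trim the sugar chains of mucins and other glycoproteins: GalNAc-transferases, galactosyl-, N-acetylglucosaminyl- and fucosyltransferases, and the mannosidases that shape N-glycans. Members were chosen by name, as genes whose single symbol began with 1 of 13 prefixes. The prefixes were Galnt, B3gnt, B3galt, B4galt, Gcnt, C1galt, Fut, Mgat, Man1, Man2, Alg, Poglut and Ogt. Earlier results of these data were known when this choice was made. The prefixes gave 54 of the 8721 named genes of the table, represented by 88 probe sets. The set holds proteins that are not glycosyltransferases, namely the mannosidases and C1galt1c1 (Cosmc), a chaperone.

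The samples were epithelial cells from the colon of 7 weeks old C57BL/6 mice, which are inbred. They had received either PBS, a salt buffer, or MIF, read here as the cytokine macrophage migration inhibitory factor. Each was measured on 1 Affymetrix array, which reports a signal for every probe set, a group of short probes for a transcript. The sources used here do not give the number of animals, the dose, the time of incubation or how cells were isolated. With 1 array a group there was no spread between replicates and no test, and every difference compares these 2 arrays, not the conditions.

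Mucin-type O-glycans begin in the Golgi, where a GALNT enzyme adds N-acetylgalactosamine to serine or threonine. Core enzymes then build on this sugar, and chains are lengthened by alternating galactose and N-acetylglucosamine and capped with fucose or sialic acid. N-glycans are instead assembled on the lipid dolichol by the ALG enzymes, moved as a block onto the nascent protein in the endoplasmic reticulum, trimmed by mannosidases and branched by the MGAT enzymes. O-glycans make up most of the mass of the mucins themselves, and in the colon they offer attachment sites and nutrients to bacteria.

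Most of the enzymes with a measurable signal were higher on the MIF array, by small amounts. Of the 54 genes, 40 were assessed, meaning that their signal lay above a floor of 232 on at least 1 array. The other 14 lay under the floor on both. Over the 40 genes, the median difference in log2 signal, MIF minus PBS, was 0.13, with a range from -0.94 to 0.70, and 30 were above 0. Over all 5837 assessed genes the median was -0.01 and 46.7% were above 0.

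At a threshold of 1.2-fold, 14 of the 40 (35%) were higher on the MIF array, against 6.82% of all assessed genes. The single gene lower by this threshold was Poglut2, 2.5% of the 40, against 6.29% of all. At 1.5-fold, Man1b1 and B3galt5 were higher, against 0.634% of all assessed genes, and Poglut2 was lower, against 0.463%. Restricting the background to the 5371 assessed genes within the members' range of mean signal gave 7.28% higher and 6.59% lower at 1.2-fold, 0.652% and 0.447% at 1.5-fold, and 48.3% above 0. Centring both arrays on their median left 11 members higher and 1 lower at 1.2-fold, beside 5.14% and 8.90% of all assessed genes. At 1.5-fold it left 1 higher and 1 lower, beside 0.480% and 0.549%. At a higher floor of 498, the 60th percentile of signals, 8 of 29 members were higher at 1.2-fold, beside 4.94% of all, and none was lower.

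**Figure D1:**
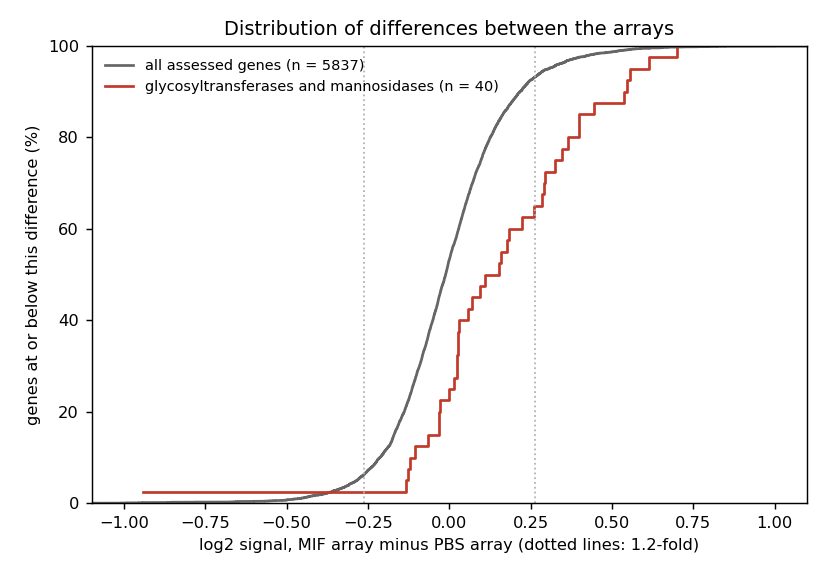
Cumulative share of genes (%) by log2 signal difference (MIF minus PBS), for all 5837 assessed genes and for the 40 assessed glycosyltransferases and mannosidases. Dotted lines mark 1.2-fold in either direction. Apart from 1 gene at -0.94 (Poglut2), the curve of the 40 genes lies to the right, with a median of 0.13 against -0.01.

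To show the start regions of members that differed in 1 direction, the 250 bases upstream of the RefSeq start are given for C1galt1, B3gnt5, Man1a and Man1b1, all higher on the MIF array, and for Poglut2, the lower one. They were taken from genes with a single start window, from RefSeq (GRCm38.p6), and are written 5′ to 3′ on the gene's own strand. Capitals mark matches on either strand to GGGCGG (the GC box) or CCAAT.
C1galt1 (chr6:7844974-7845223, plus strand): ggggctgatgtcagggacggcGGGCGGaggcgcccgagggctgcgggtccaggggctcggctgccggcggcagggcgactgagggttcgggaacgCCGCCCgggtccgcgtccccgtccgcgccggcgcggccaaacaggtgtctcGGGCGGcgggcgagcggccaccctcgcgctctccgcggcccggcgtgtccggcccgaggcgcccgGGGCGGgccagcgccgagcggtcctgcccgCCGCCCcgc
B3gnt5 (chr16:19759984-19760233, plus strand): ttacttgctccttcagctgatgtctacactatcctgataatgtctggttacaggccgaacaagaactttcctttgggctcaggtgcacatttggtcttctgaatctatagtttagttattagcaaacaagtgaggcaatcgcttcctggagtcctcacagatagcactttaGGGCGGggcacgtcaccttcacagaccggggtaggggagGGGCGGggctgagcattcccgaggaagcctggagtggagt
Man1a (chr10:54075738-54075987, minus strand): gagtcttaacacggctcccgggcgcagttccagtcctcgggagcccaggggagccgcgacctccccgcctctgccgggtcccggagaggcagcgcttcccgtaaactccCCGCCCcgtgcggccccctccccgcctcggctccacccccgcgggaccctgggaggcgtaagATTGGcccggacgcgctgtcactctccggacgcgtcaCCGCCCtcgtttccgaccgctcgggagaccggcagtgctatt
Man1b1 (chr2:25332493-25332742, plus strand): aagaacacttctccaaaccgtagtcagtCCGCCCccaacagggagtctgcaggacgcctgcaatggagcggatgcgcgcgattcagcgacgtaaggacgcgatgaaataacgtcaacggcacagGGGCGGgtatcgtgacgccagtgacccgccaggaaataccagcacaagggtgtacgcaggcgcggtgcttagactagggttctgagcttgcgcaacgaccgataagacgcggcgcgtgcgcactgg
Poglut2 (chr1:44118774-44119023, minus strand): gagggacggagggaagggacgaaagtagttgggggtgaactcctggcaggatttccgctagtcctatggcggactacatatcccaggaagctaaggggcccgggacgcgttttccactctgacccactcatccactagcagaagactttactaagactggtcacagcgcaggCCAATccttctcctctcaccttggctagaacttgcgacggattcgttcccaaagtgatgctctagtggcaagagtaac

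The 4 higher genes each held GGGCGG, with 5 matches in C1galt1 and 2 in each of the others, whereas Poglut2 held none and a single CCAAT. RefSeq windows were found for 41 of the 54 members, 58 windows in all. Both strands were searched for 6 motifs, which do not contain one another. GGGCGG was present in 10 of 17 windows (10 of 11 genes) of members at least 1.2-fold higher and in 15 of 26 windows (13 of 19 genes) of the other assessed members. It was present in 32.7% of all 32851 windows of this length. Over windows, the median G and C content was 57.2% for members and 52.4% for all. CCAAT was in 4 of the 17 and 9 of the 26 windows, and in 33.8% of all. The AP-1 site TGANTCA was in none of the 17 and 1 of the 26 (Alg3), and in 6.75% of all. The cAMP response element TGACGTCA was in none of the 17 and 2 of the 26 (B4galt3 and Galnt11), and in 1.55% of all. The E-box CACGTG was in 1 of the 17 (B3galt5) and none of the 26, and in 6.02% of all. The sequence TGACGTGG, a core of the unfolded protein response element, was in neither set and in 0.563% of all. These matches describe letters in the windows and not binding.

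Among the GALNT enzymes, which place the first sugar of mucin chains, 7 of 8 assessed genes were higher on the MIF array, with a median log2 difference of 0.18. Over all assessed genes, 46.7% were above 0. At 1.2-fold, 2 were higher, against 6.82% of all assessed genes. Galnt7, which acts on peptides that already carry a GalNAc, had a signal of 1956 with PBS and 2486 with MIF, 1.27-fold higher. Galnt6 went from 255, near the floor, to 337, 1.32-fold higher. A second Galnt7 probe set went the other way, at 1895 and 1728 (-0.13), and with its probe sets averaged the gene was at 0.12, under 1.2-fold.

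Galnt3, the transferase that glycosylates the hormone FGF23, had signals of 705 with PBS and 823 with MIF (log2 difference 0.23). Galnt4 was at 2924 and 3305 (0.18), and Galnt11 at 235 and 267 (0.18), the first of these near the floor. Galnt10 was at 284 and 307 (0.11). These genes were higher on the MIF array without reaching 1.2-fold. Galnt1, a broadly expressed initiating enzyme, was nearly equal at 1081 and 1101 (0.03). Galnt2, another broadly expressed member, was the one lower on the MIF array, at 357 and 329 (-0.12).

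The 3 assessed genes of mucin core synthesis were all above 0, against 46.7% of all assessed genes. At 1.2-fold, 2 of the 3 were higher, against 6.82% of all. C1galt1, which makes core 1 by adding galactose to the first GalNAc, was at 931 with PBS and 1268 with MIF, 1.36-fold higher. Its chaperone C1galt1c1, without which core 1 synthase is inactive, was at 2184 and 2616, a log2 difference of 0.260, just under the 0.263 that 1.2-fold stands for. Gcnt3, the mucin-type enzyme that forms the core 2 and core 4 branches, was at 332 and 488, 1.47-fold higher. The median of these 3 genes was 0.45. Gcnt1, the leukocyte-type core 2 enzyme, was below the floor throughout, and B3gnt6, the core 3 synthase, was not analysed here.

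**Figure D2:**
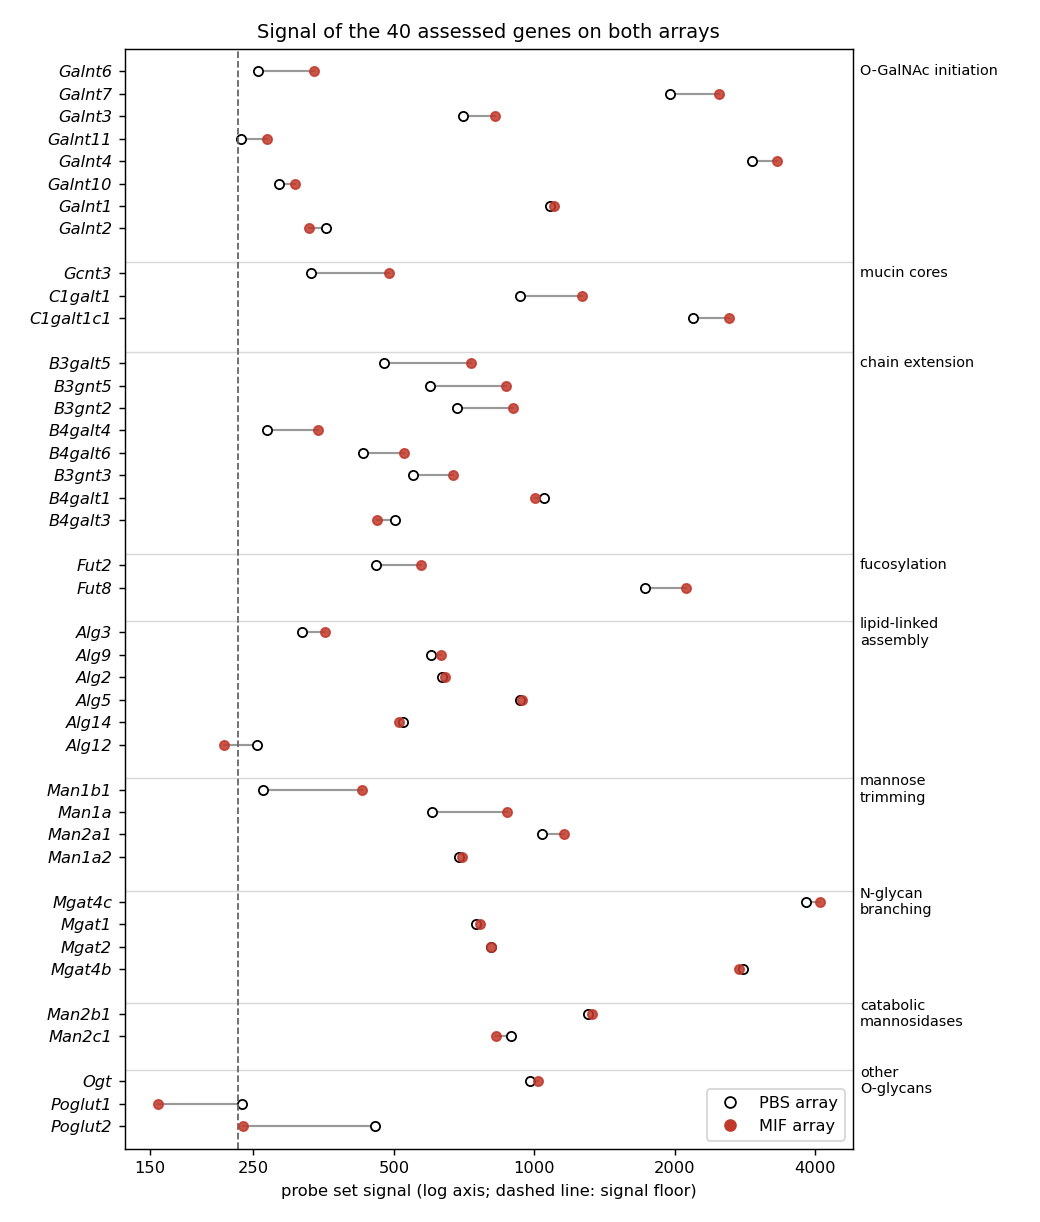
Probe set signal (log axis) of the 40 assessed genes on the PBS array (open circles) and the MIF array (filled circles), grouped by step and ordered by difference. The dashed line is the signal floor of 232; the MIF signals of Alg12 (216) and Poglut1 (156) lie under it, and 30 of the 40 genes have the filled circle to the right.

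Enzymes that lengthen the chains, grouped here with glycolipid enzymes such as B3gnt5 and B4galt6, gave the largest number of higher genes. At 1.2-fold, 6 of 8 assessed were higher, against 6.82% of all assessed genes, and the median was 0.33. B3galt5, a galactosyltransferase that makes type 1 chains, was at 477 with PBS and 730 with MIF, 1.53-fold higher. B3gnt5, which starts the lacto-series glycolipids, was at 597 and 872, 1.46-fold higher. B3gnt2, the main polylactosamine synthase, was at 683 and 900, 1.32-fold higher. With median centring B3galt5 was at 0.58, just under 1.5-fold.

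B3gnt3, which extends core 1 chains, was at 549 with PBS and 670 with MIF (1.22-fold). B4galt4, a galactosyltransferase, was at 267 and 343 (1.29-fold), the first near the floor. B4galt6, which makes lactosylceramide, was at 430 and 526 (1.23-fold). With median centring B3gnt3 and B4galt6 were at 0.25 and 0.26, under 1.2-fold, and B4galt6 was at 0.21 with averaged probe sets. The galactosyltransferases were not of 1 direction. B4galt1, the main enzyme that adds galactose to N-glycans, was at 1050 and 1004 (-0.06), and B4galt3 at 504 and 461 (-0.13). B3galt2, B3galt4, B3gnt9, B4galt5 and Gcnt2 were below the floor throughout. When all signals were used with no floor, these dim genes were included and the median of this step turned to -0.06.

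Both assessed fucosyltransferases were at least 1.2-fold higher, against 6.82% of all assessed genes. Fut2, whose product is the secretor fucose on gut mucins, was at 457 with PBS and 572 with MIF, 1.25-fold higher. Fut8, which adds the core fucose of N-glycans, was at 1731 and 2117, 1.22-fold higher. Fut4 and Fut9, which make Lewis x structures, were below the floor of 232 throughout, at 87.6 and 206 for Fut4 and 71.9 and 111 for Fut9. With median centring Fut8 was at 0.25, under 1.2-fold.

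The early steps of N-glycan synthesis gave no such difference. Of the ALG enzymes, which assemble the lipid-linked precursor, 6 were assessed and none reached 1.2-fold, with a median of 0.02. Alg3, a mannosyltransferase, was at 318 with PBS and 356 with MIF (0.16). Alg9, also a mannosyltransferase, was at 600 and 630 (0.07), Alg2, another, at 634 and 645 (0.02), and Alg5, which charges dolichol phosphate with glucose, at 933 and 943 (0.02). Alg14, a subunit of the enzyme that adds the second N-acetylglucosamine, was at 523 and 513 (-0.03). Alg12, a mannosyltransferase, was at 254 and 216, the latter under the floor, so that its log2 difference of -0.13 is a bound; it was -0.23 at the floor of 90.1, the 20th percentile. The signals of the other 5 genes were within 1.12-fold between arrays. Alg1 and Alg13 lay under the floor on both.

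Of the mannosidases that trim N-glycans, 4 were assessed, all above 0, and 2 passed 1.2-fold. Over all assessed genes, these shares were 46.7% and 6.82%. Man1b1, which removes mannose from misfolded glycoproteins before their degradation, had the largest difference towards MIF among the 40 assessed members, from 263 to 427 (1.63-fold). Its PBS signal was near the floor, and its single probe set was under the higher floor of 498 in both. Man1a, a Golgi mannosidase I, was at 602 and 875, 1.45-fold higher. Its paralogue Man1a2 was at 690 and 701 (0.02), and Man2a1, Golgi mannosidase II, at 1038 and 1155 (0.15). The median of the step was 0.35, and it was 0.15 at the floor of 498.

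The MGAT genes, which set the number of antennae of N-glycans, were nearly equal on both arrays. Mgat1, which starts the first antenna, was at 748 with PBS and 764 with MIF (0.03), and Mgat2, which starts the second, at 808 and 807 (-0.00079). Mgat4b, which adds a further branch, was at 2806 and 2747 (-0.03), and its relative Mgat4c at 3826 and 4088 (0.10). None of these 4 reached 1.2-fold, and Mgat3, the bisecting enzyme, lay under the floor on both. Mannosidases of glycan breakdown were close as well. Man2b1, the lysosomal enzyme, was at 1301 and 1326 (0.03), Man2c1, the cytosolic one, at 891 and 828 (-0.11), and Man2b2 was under the floor on both.

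Among the remaining O-glycan enzymes, Poglut2, which adds glucose to EGF-like repeats of extracellular proteins, was at 457 with PBS and 238 with MIF, 1.92-fold lower. It was the largest difference among the 40 assessed members, and its MIF signal was close to the floor. A second probe set of Poglut2, at 105 and 98.3, was below the floor, and with all probe sets averaged the gene was no longer assessed. Poglut1, which glucosylates Notch receptors, was at 237 and 156, at least 1.02-fold lower. At a lower floor of 90.1, the 20th percentile, both Poglut1 signals were above it, and its log2 difference was -0.60. Ogt, which modifies nuclear and cytosolic proteins with N-acetylglucosamine, was at 979 and 1020 (0.06). B3galt6 and B4galt7, which build the linker of proteoglycans, were below the floor throughout. Signals of the 14 unassessed genes ran from 8.94 (B3galt2, MIF array) to 228 (Alg1, MIF array).

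Several members carried more than 1 probe set, which gave a measure of error within the arrays but not between cell preparations. For 12 members a second probe set was above the floor on both arrays. The median of these was 0.24, against 0.03 over the second probe sets of 1800 genes. Of 5 members at 1.2-fold on the first probe set, 4 had the second in the same direction. Man1a gave 0.54 and 0.60, C1galt1 gave 0.45 and 0.30, B3gnt2 gave 0.40 and 0.19, and B4galt6 gave 0.29 and 0.31. Galnt7 was the exception, with 0.35 and -0.13, and 0.15 on its dimmest probe set. Over all genes the second probe set shared the direction for 163 of 193 genes (84.5%).

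Some members below the threshold were above it on a dimmer probe set. A second probe set of Galnt4 gave 0.45 (792 with PBS and 1081 with MIF), one of Man1a2 gave 0.29, one of Mgat2 gave 0.28, and the dimmest of 5 for Ogt gave 0.45 (261 and 356). For Galnt10 the direction was not the same, since a second probe set was at 259 and 200, the latter under the floor.

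**Figure D3:**
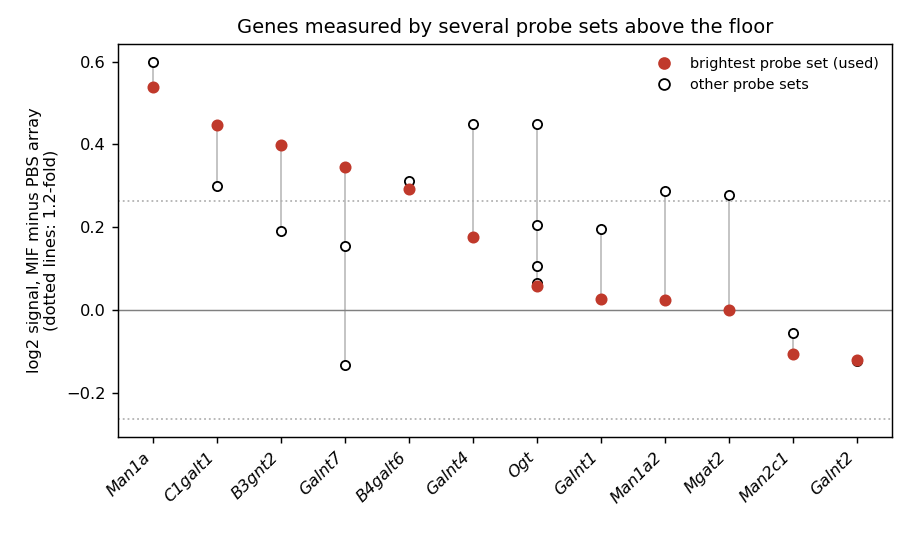
Log2 signal difference (MIF minus PBS) for each probe set whose signals both exceeded the floor, for the 12 members with more than 1 such probe set. Filled circles are the brightest probe set, used for the gene, and open circles the others; Man1a has 0.54 and 0.60, whereas Galnt7 spans from -0.13 to 0.35.

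Genes acting before and beside these enzymes were followed through 8 lists of 126 genes, of which 75 were assessed. Together 5 were at least 1.2-fold higher and 4 lower, with a median of -0.03. As shares of the 75, these were close to the 6.82% and 6.29% of all assessed genes. The oligosaccharyltransferase, which moves the precursor onto proteins, had a median of -0.05 over 11 genes. Its subunit Tusc3 was higher, from 539 with PBS to 743 with MIF (1.38-fold), while Ostc was at 3569 and 3174 (-0.17). Genes of dolichol and its sugars had a median of -0.11, and 8 of 9 were below 0. Over all assessed genes, 3109 of 5837 were below 0. Dolpp1, a dolichyl pyrophosphate phosphatase, was 1.35-fold lower, at 615 and 456, and Dhdds, which makes the dolichol chain, was at 431 and 381 (-0.18). Folding control in the endoplasmic reticulum had a median of -0.03 over 13 genes, none at 1.2-fold, with the mannosidase-like Edem3 at 0.26 and the glucosidase subunit Prkcsh at -0.21.

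Donor sugars and their transport gave values in both directions. Nucleotide sugar synthesis had a median of -0.01 over 18 genes, with 2 higher and 2 lower at 1.2-fold. Over all assessed genes the shares were 6.82% and 6.29%. Gfpt1, the first enzyme of the hexosamine pathway that supplies UDP-GlcNAc and UDP-GalNAc, was at 443 with PBS and 649 with MIF, 1.46-fold higher. Pmm1, a phosphomannomutase, was at 331 and 234, the latter near the floor, 1.41-fold lower. The others past the threshold were Uap1l1, at least 1.28-fold higher, and Gmppa, with a log2 difference of -0.26. Golgi transporters of nucleotide sugars had a median of 0.04 over 11 genes. Slc35a2, the UDP-galactose transporter, was at 1034 and 1364, 1.32-fold higher, and Slc35a3, which carries UDP-GlcNAc, was at 1072 and 1260 (0.23).

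Other glycosyltransferases outside the prefixes had a median of -0.03 over 5 assessed genes, with B4galnt1, a ganglioside synthase, at 1188 with PBS and 978 with MIF (-0.28), and B4galnt2, which makes the Sda antigen of the colon, at 7929 and 7027 (-0.17). Of 17 listed mucins and mucus proteins, 8 were in the table and 7 were assessed, with a median of 0.01. Muc2 was not analysed here, and the only mucins among the 7 were Muc3 and Muc13. Clca1, a secreted mucus protein, was at 4993 and 7092 (0.51), and the membrane mucin Muc13 at 11936 and 11097 (-0.11). Of 8 Notch receptors and ligands in the table, which are substrates of the POGLUT enzymes, only Notch1 was assessed, at 207 with PBS, under the floor, and 234 with MIF.

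**Figure D4:**
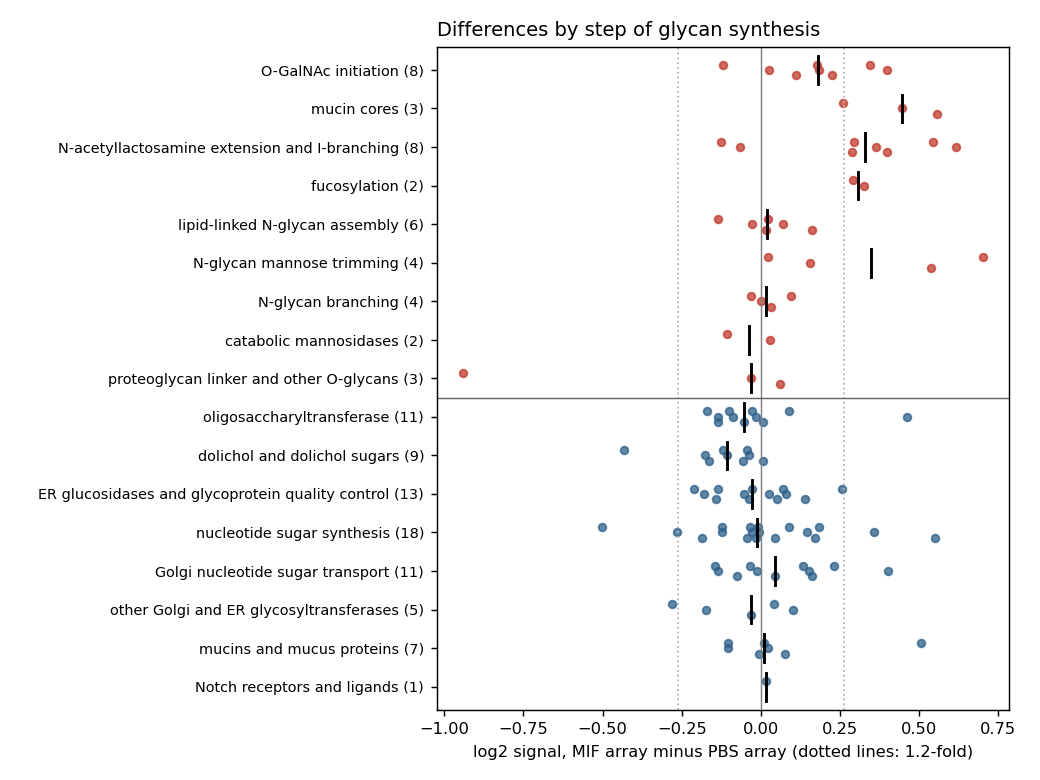
Log2 signal difference (MIF minus PBS) for each assessed gene, by step; the enzymes chosen by prefix are above the horizontal line and the other pathway lists below it. Vertical bars are medians, the number of genes is in brackets, and dotted lines mark 1.2-fold; medians are highest for mucin cores (0.45), mannose trimming (0.35) and chain extension (0.33).

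The markers of the labelled tissue were present. Of the goblet cell and absorptive colonocyte markers, 9 of 10 each were in the table, and all of these were assessed. The goblet marker without a value was Muc2. Goblet cells are the main makers of mucin, and 4 of their 9 markers were at least 1.2-fold higher on the MIF array: Klk1 (0.57), Creb3l1 (0.55), Clca1 (0.51) and Spdef (0.44). Over all assessed genes this share was 6.82%. Fcgbp, Tff3, Zg16, Agr2 and Spink4 ranged from -0.01 to 0.08, and the summed signal of the 9 was 55216 with PBS and 61566 with MIF. The part of these cells in the differences above was not tested. In bulk RNA, more cells of a type and more RNA per cell cannot be told apart. Absorptive colonocyte markers summed to 50501 and 49941, with Slc51a lower at -0.43. Stem and cycling markers summed to 9150 and 7556. The cycling genes Cdc20, Ube2c, Top2a and Mki67 were at -0.46, -0.42, -0.26 and -0.16. The stem cell genes were above 0, with Axin2 at 0.27 and Ascl2 and Lgr5 under the floor with PBS, at bounds of 0.14 and 0.02.

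Markers of some cell types other than epithelial cells moved between the arrays too. T and NK cell markers summed to 1517 with PBS and 779 with MIF, with Gzma (-1.01) and Gzmb (-0.94) as the 2 assessed of 5 in the table. Fibroblast markers summed to 833 and 2076 over 8 genes, of which Dcn, Col3a1 and Vim were assessed and the other 5 were below the floor throughout. Dcn was at 235 with PBS, near the floor, and 678 with MIF. Its log2 difference of 1.53 was the largest towards MIF among all 5837 assessed genes. Col3a1 and Vim lay under the floor with PBS, at bounds of 1.26 and 0.13. The part of T and NK cells and of fibroblasts in the differences of the enzymes was not tested. Myeloid markers were close, with sums of 1814 and 1858 over 7 genes, of which Cd14 gave 1318 and 1307. B and plasma cell markers summed to 5091 and 5162 over 2 genes, nearly all of it Xbp1, which epithelial cells also express. Both endothelial and muscle markers in the table were under the floor.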

How the data were processed

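Signals of 2 arrays, 1 per group, were analysed. Per the labels' protocols, Trizol was used for extraction and the standard Affymetrix method for biotinylated cRNA. The values are the authors' deposited probe set intensity on a linear scale, as read from the values. The sources used here do not give the summarisation, background correction, scaling or choice of the 15340 probe sets.

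Array controls (61) were left out. Names came from GEO's platform annotation, which can be old: 14049 probe sets had 1 gene symbol, 490 several and 740 none, and only the first were named. Symbols were updated by Entrez ID (14034 probe sets) through RefSeq's GRCm38.p6 table, used for names only. Each gene took the values of its probe set of highest mean log2 signal. Column medians of 337 and 346 differed by 0.04 (log2), under the limit of 0.1, so no scaling was applied. Signals under the 40th percentile (232) were raised to it. A gene under it on 1 array has a bound, counted as such.

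Every assessed member was named, and the 2 largest differences of each pathway list; other genes were named to complete small counts or after their values were seen. Members and lists were chosen with earlier results of these data known. The steps were tested on simulated data. Alternatives were median centring, quantile normalization, loess trend removal (span 0.3), other floors, averaged probe sets, omission of those with _x_at or _s_at names, and the platform symbol alone. The number of arrays limits the precision. Software was Python 3.11.15 with pandas 2.3.3, numpy 2.4.6, matplotlib 3.10.9 and statsmodels 0.14.6.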

Additional observations from a re-analysis of the deposited data

How the results depend on the processing

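The median over the assessed members stayed above 0 under the 9 alternatives, from 0.05 with no floor to 0.16 with averaged probe sets. The number above 0 (30 of 40) was 24 of 40 with median centring and 34 of 54 with no floor. The medians over all assessed genes were then -0.05 and 0.004. The number of members at 1.2-fold higher (14) was 11 to 16 under 8 of the alternatives. It was 8 at the 60th percentile floor, where 29 members were assessed. It was 16 of 49 members at the 20th percentile floor, beside 10.2% of all assessed genes. With no floor it was 16 of 54, beside 15.6% of all, a share well above the 6.82% of the main setting. The number at 1.2-fold lower (1) became 2 with the floor at the 20th percentile, 0 at the 60th, 5 without a floor and 0 when probe sets were averaged. In the same order, 7.59%, 5.49%, 10.3% and 5.75% of all assessed genes were lower. The number at 1.5-fold higher (2) became 1 with median centring, 0 with the floor at the 60th percentile and 4 with no floor. The shares of all assessed genes were 0.480%, 0.474% and 5.22% in turn. The number at 1.5-fold lower (1) became 2 with the floor at the 20th percentile, 0 at the 60th, 4 without a floor and 0 when probe sets were averaged. For all assessed genes the shares were 0.668%, 0.299%, 2.27% and 0.398% in turn. A floor changes which genes are assessed, and the averaging takes Poglut2 under it. The median of the chain extension enzymes turned to -0.0607 with no floor, when the dim genes were included; 3 other step medians moved by over 0.13, the probe set SD. Of 345 values of single members under alternatives, 337 moved by less than this value and 8 by more, 5 of these with averaged probe sets. Many of the 337 could hardly move. Omission of _x_at and _s_at names and the platform symbol alone changed no member's value, and median centring shifts each array by a constant. Members no longer assessed under an alternative, such as Poglut2 with averaged probe sets, are not among the 345. The count is therefore no measure of certainty. Genes near the floor (Man1b1, Galnt6, Galnt11, B4galt4, Alg12, Poglut1 and Poglut2) are the least certain. At the 60th percentile floor, Fut2 (0.20) and B4galt6 (0.08) were under 1.2-fold, and Gcnt3, Man1b1, Galnt6 and B4galt4 were not assessed. No paired analysis was possible because each group had a single array.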
